A study of Arabidopsis thaliana with 4 samples.

Results

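The serine carboxypeptidase-like (SCPL) genes, the vacuolar processing enzyme (VPE) genes and the cysteine proteinase gene CP1 were followed in the shoots of an Arabidopsis mutant with crinkled leaves. Members were the probe sets annotated to 1 gene whose symbol begins with SCPL or ends in VPE, together with CP1 (AT4G36880). This rule gave 34 genes, 29 SCPL genes, 4 VPE genes and CP1, out of 13356 genes with such a probe set, and each of the 34 had a single probe set. RNA came from the above-ground parts of plants aged 2 weeks, with 2 arrays of jaw-D and 2 arrays of Columbia controls. The jaw-D plants (written jaw-d in the labels) are 1 activation-tagged line, in which enhancers on the inserted tag raise a microRNA, miR319a, that pairs with transcripts of leaf-growth TCP transcription factors. No other treatment is given for either group, and the labels do not say whether single plants or pools were used. Since separate cultures are not stated either, p-values reflect the spread between these arrays, which could be technical.

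SCPL proteins share a fold and a catalytic serine, aspartate and histidine with carboxypeptidases, enzymes that remove residues from the C-terminal end of proteins. Some members of the family are peptidases, and others have turned into acyltransferases that move an acyl group from a glucose ester to another molecule, as in the synthesis of the sunscreen compound sinapoylmalate in leaves. VPEs are legumain-type cysteine proteases of the vacuole that cut after asparagine or aspartate and so bring other vacuolar proteins, proteases among them, to their mature form. CP1 belongs to the papain-type cysteine proteases, a family of degradative enzymes found largely in lytic compartments of plant cells.

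The deposited values were microarray intensities on a linear scale. The mean after trimming 2% at each end was 2500 on each of the 4 arrays, and the medians were 1139 and 1146 units on the jaw-D arrays and 1069 and 1032 units on the control arrays. All intensities below were quantile normalised between arrays and are in arbitrary units. Differences are jaw-D minus control in log2(intensity + 302.3), a scale that understates the change of dim genes, and each was tested with limma with Benjamini-Hochberg adjustment over 22746 probe sets. An adjusted p under 0.05 was taken as passing. Precision is limited by having 2 arrays per group. The correlation of log2 values over all probe sets was 0.992 for the jaw-D pair, 0.990 for the control pair and 0.980 to 0.984 across the groups. Of 5 green leaf markers 2 could be named, the rubisco activase gene RCA and the antenna gene LHCB4.1, and their summed intensity was 138104 and 139046 units in jaw-D and 149652 and 147405 units in control. Of 3 root hair markers 2 could be named, EXPA7 and EXPA18, with sums of 467 and 1007 units in jaw-D and 868 and 902 units in control. None of these markers passed the test, and their part in the results below was not tested. Markers of seeds, flowers and senescing leaves were not analysed here.

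Of the 34 genes, 5 rose and 1 fell in jaw-D, and 28 did not pass the test. The rises were those of CP1, GAMMA-VPE, scpl25, SCPL45 and scpl35, and the fall was that of scpl46. Calls thus made up 17.6% of the 34 genes, against 4.19% of all probe sets tested. By direction, rises were 14.7% of the 34 genes and 1.64% of all probe sets, while falls were 2.94% and 2.54%. Members were chosen with earlier results of these data known, and CP1 was added by name. The shares in this paragraph are therefore not independent of the values, and an excess over all probe sets is partly built in. In RNA from whole shoots, fewer cells of a type and less RNA per cell cannot be told apart. The difference was positive for 25 of the 34 genes (73.5%), against 51.4% of all probe sets, and the median difference was 0.15 for the 34 genes and 0.01 for all probe sets. With median centring of the arrays, 20 of the 34 differences were positive, where 42.4% of all probe sets were positive. The medians were then 0.118 for the 34 genes and -0.033 for all probe sets. A difference above 0.5 in either direction was measured for 7 of the 34 genes (20.6%), the 6 that passed and scpl20, against 6.09% of all probe sets. At an unadjusted p under 0.05 there were 11 of the 34 genes (32.4%), against 19.9% of all probe sets. The groups did not overlap in 18 genes (52.9%), close to the 49% of all probe sets. Both jaw-D values lay above both control values in 13 genes (38.2%, with 25.5% of all probe sets) and below them in 5 genes (14.7%, with 23.6% of all probe sets).

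**Figure D1:**
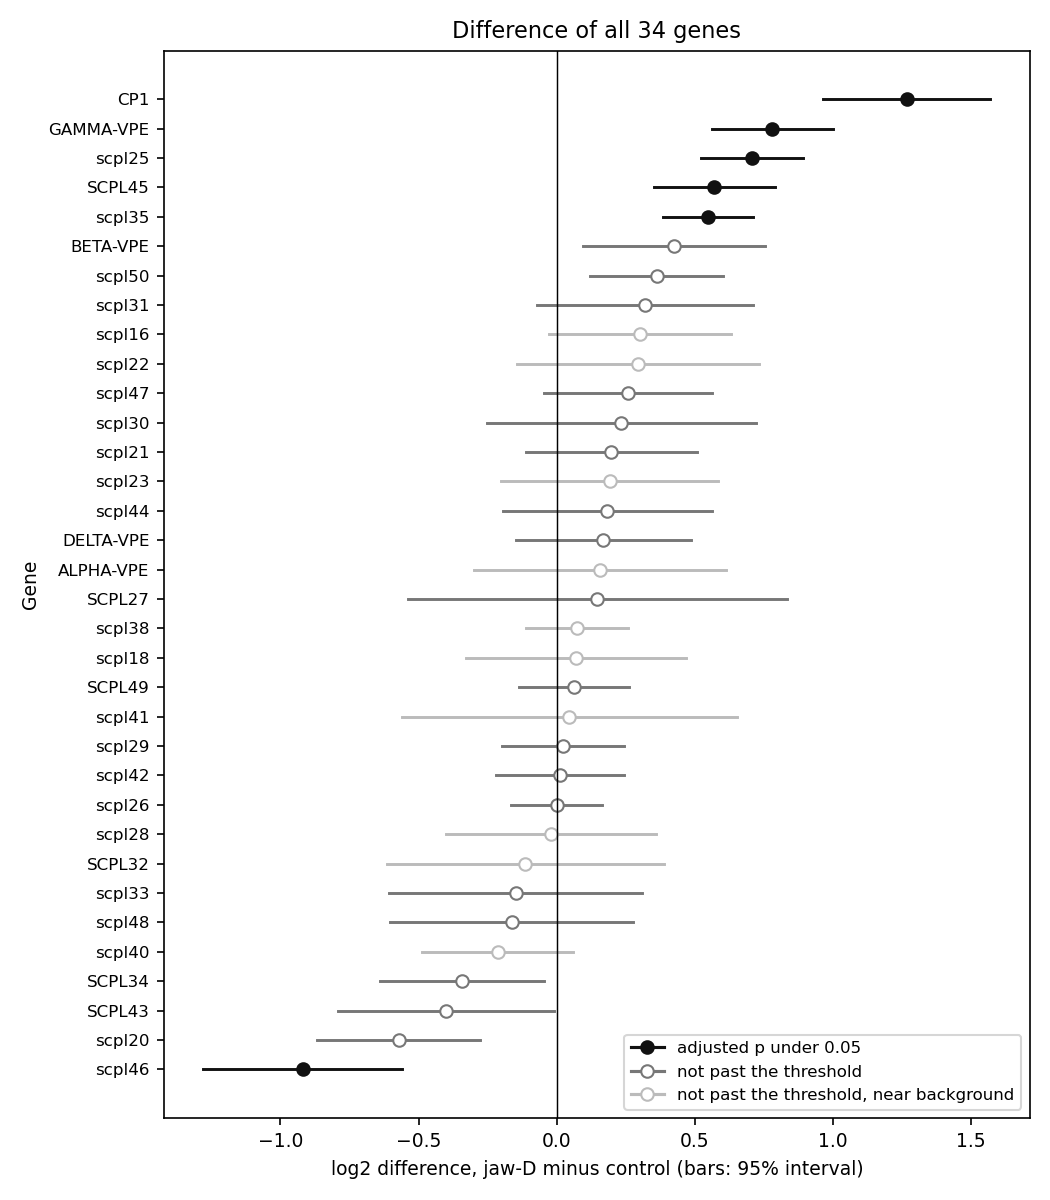
The log2 difference of each of the 34 genes, jaw-D minus control (x axis), with its 95% interval from limma (bars) and n = 2 arrays per group; filled points passed the test, and pale points are genes near background. CP1 lies at 1.27 at the top and scpl46 at -0.92 at the bottom, and 28 genes lie between -0.57 and 0.42 without passing.

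Among the SCPL genes, 3 of 29 rose (10.3%, with 1.64% of all probe sets), 1 fell (3.45%, with 2.54%) and 25 did not pass. The median difference over the 29 was 0.07. Of the 25 that did not pass, 9 were near background, meaning that both group means were at or below 353 units, the highest deposited value of the 27 Bacillus subtilis control probe sets on any array. The other 16 had differences from -0.57 to 0.36.

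The gene scpl25 (AT3G02110) measured 12322 and 13530 units in jaw-D and 7896 and 7687 units in control. Its lowest jaw-D value was 1.56 times its highest control value, so the groups lay well apart. The means were 12926 ± 854 units in jaw-D and 7792 ± 148 units in control (SD, n = 2 each). The difference in limma was 0.71 ± 0.07 (SE) on the log2 scale (adjusted p 0.0191, and 0.0716 without the variance trend).

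SCPL45 (AT1G28110) measured 5859 and 6271 units in jaw-D and 4220 and 3756 units in control. Here the gap between the groups was larger than the gap between the arrays within either of them, with the nearest values 1.39 times apart. On the log2 scale SCPL45 was higher by 0.57 ± 0.09 (SE; limma, adjusted p 0.0333, and 0.0952 without the variance trend).

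For scpl35 (AT5G08260) the jaw-D arrays gave 19861 and 19583 units and the control arrays 12960 and 13815 units. The jaw-D values were almost equal, and both lay above the control values. In limma scpl35 was higher by 0.55 ± 0.07 (SE) in log2 units (adjusted p 0.0217, and 0.0851 without the variance trend). With each array centred on its median instead, the difference was 0.34 and the adjusted p in limma was 0.0825, so this call depends on how the arrays were scaled.

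The fall in scpl46 (AT2G33530) was to 864 and 1016 units in jaw-D, against 1834 and 2269 units in control. The highest jaw-D value was 0.55 times the lowest control value, with no overlap. Mean intensity was 940 ± 107 units in jaw-D and 2052 ± 308 units in control (SD, n = 2 each), a linear ratio of 0.46. The limma estimate was -0.92 ± 0.15 (SE) on the log2 scale (adjusted p 0.0347). At 4 times the pseudocount the difference was -0.60 and still passed, while without the variance trend scpl46 did not pass (adjusted p 0.0756 in limma).

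**Figure D2:**
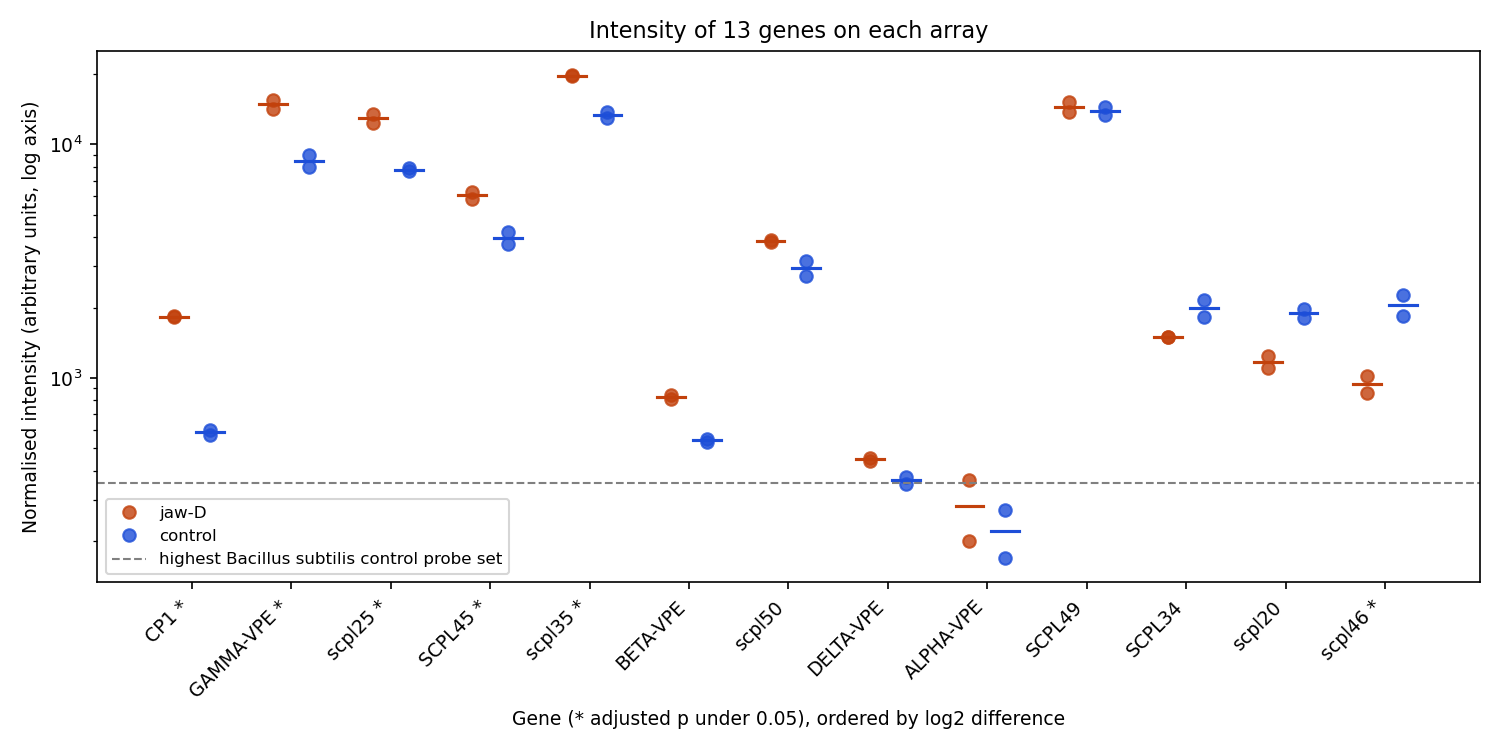
Normalised intensity on a log axis for 13 genes, each array a point, jaw-D (orange) left of control (blue), with a short line at the mean of the 2 arrays; an asterisk marks genes that passed, and the dashed line is the highest Bacillus subtilis control value, 353 units. The levels of different genes are not comparable, since each probe set has its own response. The jaw-D and control points overlap in ALPHA-VPE and SCPL49 and are separate in the others, most of which were picked for a small p; over all 34 genes 18 were separate (52.9%), with 49% of all probe sets.

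The same direction as scpl46 was measured, without passing, in scpl20 (AT4G12910). Its intensities were 1242 and 1106 units in jaw-D and 1808 and 1973 units in control, so that the groups did not overlap. Limma put the log2 difference at -0.57 ± 0.12 (SE; adjusted p 0.0633). It passed in 2 of 11 other settings, with the pseudocount at 0.1 times (adjusted p 0.045) and with dim probe sets left out (adjusted p 0.00994), while the adjusted p in the others ran from 0.0574 to 0.248.

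SCPL34 (AT5G23210) measured 1497 and 1502 units in jaw-D and 1817 and 2158 units in control. The jaw-D values were the lower ones, but the control arrays lay further from each other than the nearest jaw-D and control values did. Its log2 difference was -0.34 (95% interval -0.64 to -0.05), with an adjusted p of 0.193 in limma. Among the SCPL genes with positive differences that did not pass, scpl50 (AT1G15000) had the smallest p, at 3912 and 3835 units in jaw-D and 3173 and 2735 units in control. Its difference was 0.36 (95% interval 0.12 to 0.60), with an adjusted p of 0.114 in limma.

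Several bright SCPL genes differed by little. SCPL49 (AT3G10410) measured 13786 and 15267 units in jaw-D and 13345 and 14419 units in control, overlapping values with a difference of 0.06 (95% interval -0.14 to 0.26). The sign of this small difference turned in 2 other scalings, at -0.12 with arrays centred on the median and -0.001 as deposited. Genes chosen after their values were seen, scpl26, scpl29 and scpl42, had differences of 0.0004, 0.02 and 0.01. With median centring these became -0.12, -0.09 and -0.10, so that no direction can be given for them. The interval for scpl26 was narrow, at -0.16 to 0.17. SCPL27, also chosen after its values were seen, had a wide interval of -0.54 to 0.83, and measured 1397 and 811 units in jaw-D and 713 and 1218 units in control, and the spread within each group exceeded the difference of the means.

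The remaining SCPL genes above background did not pass either. Positive differences of 0.18 to 0.32 were measured for scpl31, scpl47, scpl30, scpl21 and scpl44. The jaw-D values of scpl31, scpl47 and scpl21 lay wholly above the control values. Such separation was measured in 4 of the 16 SCPL genes above background that did not pass (25%, with 25.5% of all probe sets). The control means of scpl47, scpl30 and scpl21 (280, 315 and 318 units) were below the background level. These genes counted as above background by their jaw-D means alone, which fixes their positive direction and favours separation. Negative differences were measured for scpl33 (-0.15), scpl48 (-0.16) and SCPL43 (-0.40), of which SCPL43, chosen after its values were seen, had groups that did not overlap, at 429 and 301 units in jaw-D and 614 and 536 units in control. Its adjusted p was 0.243 in limma. Near background in both groups were 10 of the 34 genes, ALPHA-VPE and the SCPL genes scpl16, scpl18, scpl22, scpl23, scpl28, SCPL32, scpl38, scpl40 and scpl41. Their differences ran from -0.21 to 0.30, and 3 of the 10 (30%) had groups that did not overlap. That share was 49% over all probe sets and 54.4% over those above background, so it was lower among dim probe sets in general. The share near background was 29.4% of the 34 genes and 25.6% of all probe sets.

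**Figure D3:**
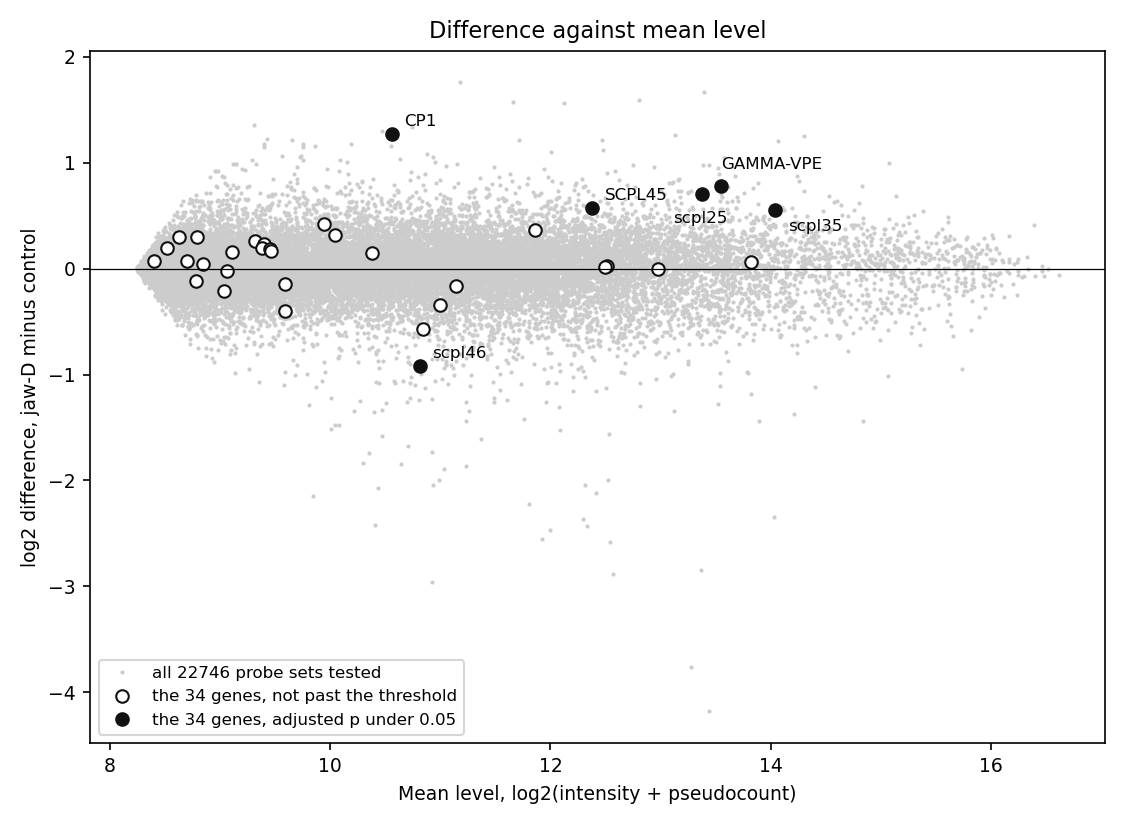
The log2 difference, jaw-D minus control (y axis), against mean level as log2(intensity + pseudocount) (x axis), for all 22746 probe sets tested (grey dots) and for the 34 genes (circles, filled where they passed). The rises of GAMMA-VPE, scpl25, SCPL45 and scpl35 lie in the upper part of the level range, between percentiles 85.0 and 96.3 of mean intensity over all probe sets, while CP1 and scpl46 lie at percentiles 52.2 and 57.4.

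In genome order, 2 pairs of the 34 genes were next to each other, counting protein-coding genes. The neighbours scpl22 and scpl23 had differences of 0.29 and 0.19, and both were near background. The neighbours scpl26 and scpl28 had differences of 0.0004 and -0.02, with scpl28 near background. None of the 6 genes that passed lay next to another of the 34. The full SCPL list held 51 loci, of which the 29 described here had a probe set for 1 gene, and the other 22 were not analysed here by name. Among these 22, scpl36 and scpl37 share a probe set that measured 17.1 and 17.3 units in jaw-D and 11.8 and 13.8 units in control, far below the background level of 353 units. A probe set shared by scpl39 and AT3G56540 was also near background. The acyltransferases of sinapate ester synthesis could not be followed. Of 9 genes in that pathway list 1 was measured, ALDH2C4, an aldehyde dehydrogenase that makes sinapate, with a difference of 0.02 and an adjusted p of 0.937 in limma.

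All 4 VPE genes had positive differences, with a median of 0.30, where 51.4% of all probe sets had positive differences. Of the 4, 1 rose, where 1.64% of all probe sets rose. DELTA-VPE was close to background and ALPHA-VPE near it, so the shared sign does not show a rise of the whole family. GAMMA-VPE (AT4G32940), the main VPE of vegetative organs, with a known part in cell death during infection, measured 15550 and 14192 units in jaw-D and 8011 and 9052 units in control. Its lowest jaw-D value was 1.57 times its highest control value. The ratio of mean intensities was 1.74, and limma gave 0.78 ± 0.09 (SE) on the log2 scale (adjusted p 0.0198, and 0.0725 without the variance trend).

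BETA-VPE (AT1G62710), known for processing seed storage proteins, measured 843 and 811 units in jaw-D and 546 and 533 units in control. The groups did not overlap, and the ratio of means was 1.53. Its log2 difference was 0.42 (95% interval 0.09 to 0.75), and it did not pass, with an adjusted p of 0.156 in limma. A smaller pseudocount, 0.1 times as large, gave 0.59 with an adjusted p of 0.166. DELTA-VPE (AT3G20210), known from the seed coat, measured 441 and 454 units in jaw-D and 377 and 352 units in control. These values did not overlap, yet they lie close to the background level, and the difference of 0.17 had an adjusted p of 0.549 in limma. ALPHA-VPE (AT2G25940), the other vegetative VPE, was near background, with 365 and 200 units in jaw-D and 271 and 168 units in control. Its groups overlapped, and its difference of 0.16 turned to -0.05 without jaw-D 1.

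CP1 (AT4G36880) had the largest difference of the 34 genes, with 1823 and 1836 units in jaw-D and 598 and 569 units in control. Both groups were tight and far apart, the lowest jaw-D value being 3.05 times the highest control value. The ratio of mean intensities was 3.14, whereas limma on the pseudocount scale gave 1.27 ± 0.12 (SE) in log2 units (adjusted p 0.0176). A pseudocount 0.1 times as large gave 1.60 and one 4 times as large gave 0.76, and CP1 passed with both. CP1 was the gene that also passed without the variance trend of limma, the other 5 having adjusted p from 0.0716 to 0.0952.

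With any 1 of the 4 arrays left out, none of the 34 genes passed limma. Few probe sets of any kind passed these fits, 0 to 14 of 22746. The number of the 34 genes at an unadjusted p under 0.05 was 10 without jaw-D 1 (29.4%, with 14.7% of all probe sets), 8 without jaw-D 2 (23.5%, with 15.1%), 11 without control 1 (32.4%, with 15.4%) and 8 without control 2 (23.5%, with 19.3%). The 6 genes kept their direction in each of these fits, with adjusted p from 0.118 to 0.194.

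**Figure D4:**
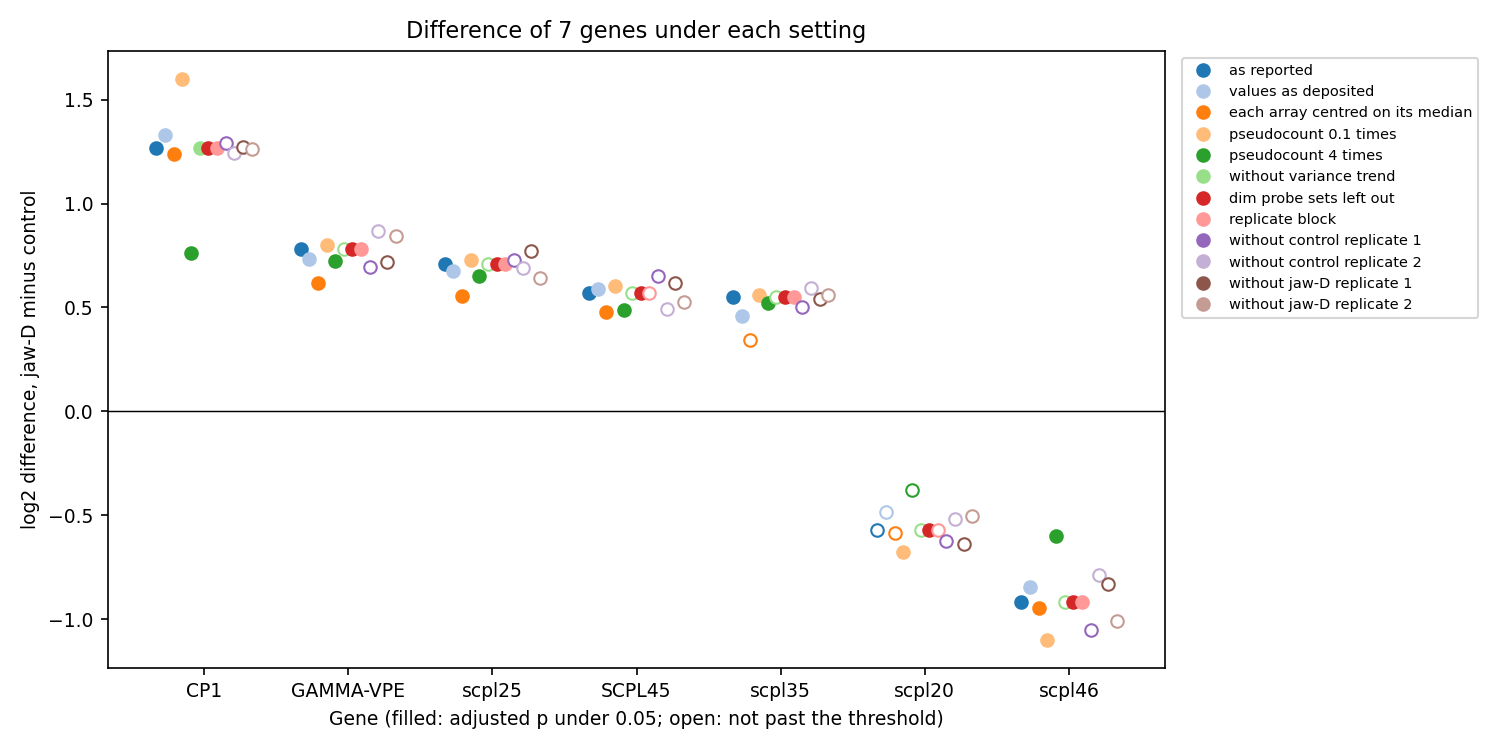
The log2 difference, jaw-D minus control (y axis), of the 6 genes that passed and of scpl20 under the reported setting and 11 others; filled points passed and open points did not. The sign of each of the 7 genes is the same in every setting shown, CP1 ranges from 0.76 to 1.60, and all points of fits with 1 array left out are open.

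CP1 was set beside the other papain-type proteases. Of 32 listed genes 19 were measured. Of these 1 rose (CP1, itself chosen as a member), 0 fell and 18 did not pass, where 4.19% of all probe sets passed. The median difference was 0.045. After CP1, the smallest p was that of AT3G19390, which measured 164 and 266 units in jaw-D and 30.4 and 77.5 units in control. This gene was near background in both groups, and its difference of 0.53 had an adjusted p of 0.101 in limma. Among aspartic proteases of the vacuole, 0 of 3 passed (median difference 0.08). At an unadjusted p under 0.05 in limma there was 1 of the 3, with 19.9% of all probe sets. APA1, the gene with the smallest p among them, measured 28675 and 28099 units in jaw-D and 23381 and 24585 units in control. Its values were separate, with a difference of 0.24 and an adjusted p of 0.112 in limma, while AT1G62290 had a difference of 0.08 and an adjusted p of 0.85.

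Inhibitors of these proteases did not pass. Of 7 cystatins, which block papain-type proteases, 3 were measured and 0 passed limma. At an unadjusted p under 0.05 there was 1 of the 3, with 19.9% of all probe sets. The 2 with the smallest p were AT5G47550, at 3545 and 3346 units in jaw-D and 4373 and 3849 units in control (difference -0.23, adjusted p 0.25), and AT5G05110, with a difference of 0.12 (adjusted p 0.628). Of 3 serpin and Kunitz inhibitors, 2 were measured and 0 passed, with 0 at an unadjusted p under 0.05. SERPIN1, an inhibitor of papain-type proteases, had a difference of 0.05 (adjusted p 0.817), and AT1G72290, near background, had -0.04 (adjusted p 0.855). Missing the threshold does not show that these inhibitors were at equal levels.

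In the list of tonoplast transport, the membrane of the vacuole, 2 of 6 genes were measured and 1 rose, where 1.64% of all probe sets rose. VHA-A2, a membrane subunit of the vacuolar proton pump, measured 5762 and 6026 units in jaw-D and 3907 and 3899 units in control. The groups were far apart relative to their spread, and limma gave 0.56 ± 0.07 (SE) on the log2 scale (adjusted p 0.0261). Its close relative VHA-A3 measured 9106 and 8515 units in jaw-D and 9435 and 8563 units in control, overlapping values with a difference of -0.03 and an adjusted p of 0.905. The difference between these 2 genes was not tested. Vacuolar sorting receptors (7 listed) and metacaspases (9 listed) were not analysed here by name.

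**Figure D5:**
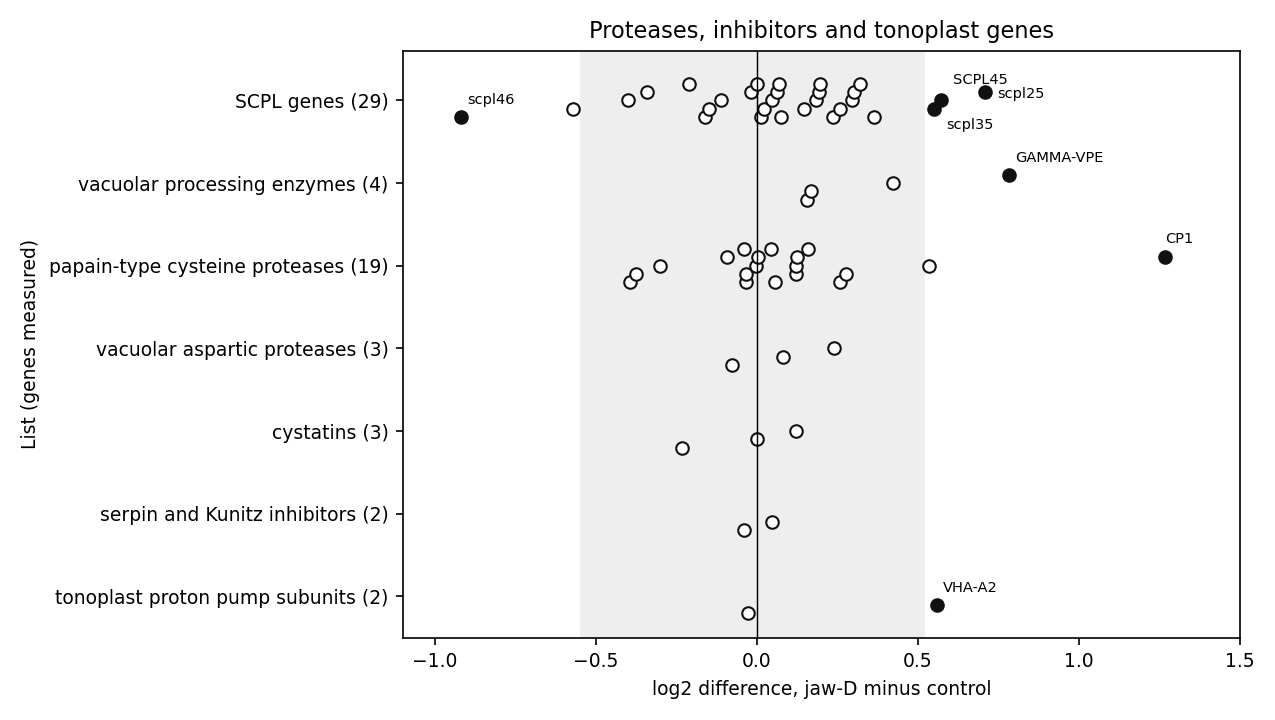
The log2 difference, jaw-D minus control (x axis), of each measured gene of 7 lists, with the number measured in brackets; filled points passed the test, and the vertical jitter carries no value. The grey band spans -0.55 to 0.52, the central 95% of all probe sets tested, outside which lie the 6 SCPL, VPE and CP1 genes that passed, VHA-A2, and also scpl20 and AT3G19390, which did not pass.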

How the data were processed

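Per the labels, RNA from jaw-D and Columbia plants was measured on 4 arrays, 2 per group. The deposited values are intensity values for 22810 probe sets, scaled to a common level by the authors; their software is not given in the sources used here. After 64 control probe sets were left out, 22746 were quantile normalised, since array medians differed by up to 11.0%. The pseudocount of 302.3 units is the 25th percentile of all deposited values. The test was limma 3.58.1 (R 4.3.3; lmFit, eBayes with a variance trend, two-sided, 2 residual degrees of freedom), fitted on all probe sets and checked on simulated data.

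Names came from the platform annotation: 13513 had 1 gene, 503 several and 8730 were unnamed here; 13436 matched the TAIR10.1 gene table, used for names and neighbours only. Members and gene lists were chosen with earlier results of these data known. Values on each array are given for members that passed, CP1, the VPE genes, the 4 other members with the smallest p and the 3 SCPL genes with the highest mean; of each list, for those that passed and up to 2 with the smallest p. Alternatives covered scaling, pseudocount, variance trend, dim probe sets, a replicate block, each array left out, and membership by the reference table.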

Additional observations from a re-analysis of the deposited data

How the results depend on the processing

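The number of the 34 genes that passed was 6 with values as deposited, 6 at 4 times the pseudocount and 7 at 0.1 times the pseudocount. Of all 22746 probe sets, 1131, 818 and 1263 passed in these settings. With median centring 5 of the 34 genes and 1198 of all probe sets passed. With dim probe sets left out 23 of the 34 genes were tested and 7 passed, where 2152 of 16439 probe sets passed. When members were chosen by the reference table, 6 passed. The same 6 genes were among the calls in each of these settings, except scpl35 with median centring. Without the variance trend 1 passed, and with any 1 array left out 0 passed (8 to 11 at an unadjusted p under 0.05); the lone array of a group is then assumed to vary like the other group. No member had a further probe set to try. Over all probe sets 952 passed, against 65 without the variance trend, 2152 with dim probe sets left out, and 0 to 14 with 1 array left out; rises were 39.3% of the calls and 17.9% with median centring. The sign turned in at least 1 setting for 13 of the 34 genes, none of which had passed and whose reported differences were at most 0.19 in size; 5 turned with median centring, 2 as deposited and 1 to 9 with 1 array left out. Among the genes named by the rule these were SCPL49 (-0.001 as deposited, -0.12 with median centring, and -0.009 to 0.135 with 1 array left out) and ALPHA-VPE (-0.049 to 0.362 with 1 array left out). The cause of these changes was not tested. Same-numbered arrays did not deviate together (r = -0.021 across probe sets), and they were treated as unpaired. With 2 arrays per group this value cannot show whether same-numbered arrays belong together. With a replicate block 466 probe sets and 5 of the 34 genes passed, SCPL45 having an adjusted p of 0.0596 in limma.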
